A study of Mus musculus with 1699 samples.

Results

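The data described here are the levels of 41 axon guidance receptors and ligands in single cells of the mouse ventral midbrain. The members are a fixed list of symbols, matched through Ensembl identifiers to 41 of the 39468 gene entries of each cell, and they hold 5 netrin receptors (Dcc, Unc5a, Unc5b, Unc5c and Unc5d), the ligand Ntn1, 3 Robo receptors, 3 Slit ligands, 2 neuropilins, 8 plexins, 4 secreted and 4 membrane semaphorins, 6 Eph receptors, 3 ephrins and 2 netrin-G proteins. The rule for the list uses no expression value, though the list was drawn up with earlier results of these data known. Cells were sorted for GFP from mice that carry the Pitx3tm1Mli allele, in which eGFP is placed in the gene of Pitx3, a transcription factor of midbrain dopamine (mDA) neurons, so that every sorted cell carries at least 1 modified allele. Heterozygotes (Pitx3eGFP/wt) were sampled at 3 embryonic stages (E13.5, E15.5 and E18.5) and 3 postnatal ones (P1, P7 and P90), and homozygotes (Pitx3eGFP/eGFP), which lack an intact Pitx3 allele, at E13.5 and P1. Each cell was sequenced with Smart-seq2, which reads whole transcripts, and levels are given as RPKM, reads scaled by transcript length and by the reads of the cell. Of 1699 cells, 1531 were kept after the removal of shallow cells and of cells with at least 3 of 9 oligodendrocyte markers over an RPKM of 10. Of these, 1181 were heterozygous and 350 homozygous. Heterozygotes made up 9.14% of all kept cells at E13.5, 9.21% at E15.5 and 12% at E18.5. After birth they made up 18.4% at P1, 7.32% at P7 and 21.1% at P90. Homozygotes made up 11.7% at E13.5 and 11.2% at P1. The labels tie no cell to an animal, so each stage and genotype counts as 1 sample without replicates. No test between groups was possible, and intervals (95%) cover the counting of cells only.

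Growing axons are steered by a small set of ligand and receptor families. Netrin-1 attracts axons through Dcc and repels them where Unc5 receptors are present, Slit proteins repel axons through Robo receptors, secreted class 3 semaphorins act through neuropilins paired with plexins, and ephrins on one cell signal through Eph receptors on another. In the midbrain these systems are known for their part in guiding mDA axons out of the ventral midbrain and towards the striatum and cortex.

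The study designed padlock probes, which are closed into circles on cDNA for sequencing in tissue sections, for 2 of the members. Their 40-base targets are shown because they place the measured transcripts in the genome (GRCm38, GENCODE vM21). All 6 lie within coding sequence of the longest coding transcript, and capitals mark the 20 bases that match the 5′ arm of the probe. Nrp1 (neuropilin 1, plus strand of chromosome 8) was targeted in exon 2 (chr8:128363300-128363339), exon 9 (chr8:128468625-128468664) and exon 17 (chr8:128502668-128502707) of 17.
Nrp1 target 1: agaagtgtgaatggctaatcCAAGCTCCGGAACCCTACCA
Nrp1 target 2: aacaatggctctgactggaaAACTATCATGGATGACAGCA
Nrp1 target 3: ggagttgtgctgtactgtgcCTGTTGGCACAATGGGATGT
Unc5d (a netrin receptor, minus strand of chromosome 8) was targeted in exon 2 (chr8:28891302-28891341), exon 7 (chr8:28758958-28758997) and exon 14 (chr8:28694650-28694689) of 18.
Unc5d target 1: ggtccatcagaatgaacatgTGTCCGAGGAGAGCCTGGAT
Unc5d target 2: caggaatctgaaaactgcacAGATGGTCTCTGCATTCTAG
Unc5d target 3: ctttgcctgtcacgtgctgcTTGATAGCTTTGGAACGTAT
The first Nrp1 target was found in 4 of 4 annotated Nrp1 transcripts and the other 2 in 1 of 4, whereas each Unc5d target was found in 5 of 5 Unc5d transcripts.

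The kept cells held 100007 to 8634201 reads on genes, with medians per stage and genotype of 753256 (E13.5 homozygotes) to 2357900 (E13.5 heterozygotes). Neuron markers were over an RPKM of 10 in most cells of every group for 6 of 6 genes. At P7, however, 31.2% of kept cells had fewer than 4 of these 6 markers, against 5.67% at P1 and 0 cells at P90. The summed RPKM of 7 astrocyte markers averaged 2925 at P7 (range 0 to 25184) and 383.9 at P1, and for Sema6a, Efnb3, Unc5d and the number of receptors per cell the P7 value is given also for cells with at least 4 neuron markers. The other P7 values below are for all kept cells. In P7 cells with at least 4 neuron markers the mean RPKM was 11.9 for Dcc, 14.4 for Unc5a, 22.1 for Ntn1 and 7.39 for Robo1. It was 34.1 for Robo2, 19.7 for Nrp1, 17.6 for Nrp2, 73.1 for Plxna3 and 107.3 for Epha5. The 94 heterozygous P1 cells with spike-in RNA stood apart from those without. Between these, 39 members passed a minimum mean RPKM of 1 in either set, of which 2 were at least 2-fold higher with spike-in (Epha4 and Ntng1, against 2.18% of all entries) and 4 lower (Slit2, Sema3c, Sema6a and Efna5, against 13.6%). The cells with Slc6a3 alone above 150 RPKM numbered 52 of 94 with spike-in, and as many in the larger set without.

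Across the heterozygous stages the members spanned a wide range of levels. Efnb3, a membrane-bound ephrin, had the highest mean RPKM at its peak (193.8 at P1), followed by Plxna3 (118.2 at E13.5), Sema5b (108.3 at E13.5) and Epha5 (108.1 at E15.5 and 108.1 at P1). At the other end Robo3, a Robo receptor of commissural axons, stayed at or below 1.03, and Sema3a, Sema3c and Sema3d did not exceed 3.51 at any stage.

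**Figure D1:**
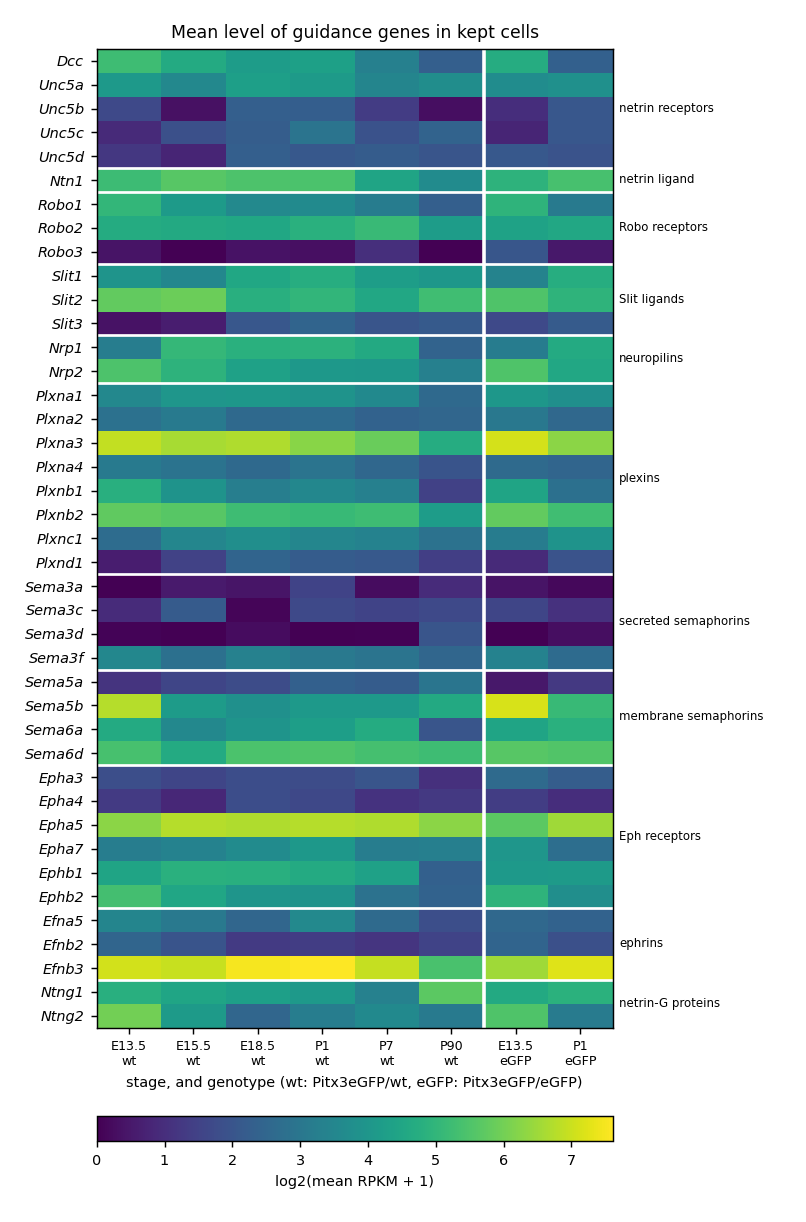
Mean level of the 41 guidance genes (rows, grouped by role) in kept cells of each stage and genotype (columns), coloured by log2 of the mean RPKM plus 1. Efnb3, Plxna3 and Epha5 are bright at most stages, the P90 column is darker than the P1 column for most receptors, and Sema5b is brightest in the 2 E13.5 columns.

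Among the netrin receptors, Dcc was found in fewer cells at each later stage. Its mean RPKM was 37.2, 24 and 17.3 at the 3 embryonic stages and 18.9, 8.85 and 3.91 at P1, P7 and P90. The share of cells over an RPKM of 10 was 62.1% (53.6 to 70.2%) at E13.5, 35.8% (30.2 to 41.7%) at P1 and 13.3% (9.8 to 17.5%) at P90, and these 3 intervals did not overlap. Within a stage cells differed widely, with quartiles of 1.08 and 66.9 RPKM at E13.5. Unc5a was the most abundant of the Unc5 receptors, with mean RPKM values of 16.3, 10.8 and 18.7 at the 3 embryonic stages and 16.8, 9.94 and 12.2 at P1, P7 and P90. Unc5b, Unc5c and Unc5d had lower means at each of the 6 stages, from 0.22 (Unc5b at P90) to 6.59 (Unc5c at P1), and passed an RPKM of 10 in at most 15.2% of cells (Unc5d at P7, or 22.1% of P7 cells with at least 4 neuron markers). The ligand Ntn1 was present in the same cell populations, with mean RPKM values of 35.8, 48.9 and 43.5 at the 3 embryonic stages and 43.2, 20.5 and 11.6 at P1, P7 and P90.

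Of the Slit and Robo genes, Slit2, Robo2, Slit1 and Robo1 passed an RPKM of 10 in over 5% of cells at each of the 6 stages. Robo1 had mean RPKM values of 32.1, 16.7 and 10.9 at the 3 embryonic stages and 11.4, 8.17 and 3.88 at P1, P7 and P90, so that it was lower at each successive stage but P1. Robo2 did not follow this order, with mean RPKM values of 24.8, 23.6 and 22.1 at the 3 embryonic stages and 27.1, 34.8 and 17.3 at P1, P7 and P90. Robo2 passed an RPKM of 10 in 31.4% of cells at E13.5 and in 48.3% at P90, whereas Robo1 did so in 67.9% and 13.9%. Slit2, which encodes a repellent ligand, was found in 50.7% of cells at E13.5, 45.4% at P1 and 55.7% at P90. Slit1 was found in 23.6%, 44% and 38.4% of cells at the same stages, and Slit3 in at most 9.29% of cells at any stage.

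The neuropilins, which bind class 3 semaphorins, differed in their course over time. Nrp1 had mean RPKM values of 8.38, 32.2 and 27.7 at the 3 embryonic stages and 28.8, 23.7 and 4.4 at P1, P7 and P90, with the embryonic and adult ends low and E15.5 to P7 high. Nrp2 was highest at E13.5, with mean RPKM values of 43.9, 29.1 and 19.3 at the 3 embryonic stages and 15.6, 15.2 and 9.03 at P1, P7 and P90. Plxna3, a signalling partner of neuropilins, was the most abundant plexin, with mean RPKM values of 118.2, 96.9 and 102.6 at the 3 embryonic stages and 75, 57.3 and 25.3 at P1, P7 and P90. Plxnb2 followed, with means of 52.6 at E13.5, 34.1 at P1 and 17.4 at P90. Plxnb1 was at 27, 10.5 and 1.77 at the same stages. The other 5 plexins (Plxna1, Plxna2, Plxna4, Plxnc1 and Plxnd1) had means of at most 15.3, reached by Plxna1 at E18.5. Of the secreted semaphorins, Sema3f was the best represented, in 14.9% (E15.5) to 27.1% (E13.5) of cells. Sema3d was over an RPKM of 10 in 0 cells at P1, which allows a share of up to 1.06% (taken here and below as 3 cells of the total), and in 12.4% (9.0 to 16.5%) at P90. Of the membrane semaphorins, Sema6d was found in 33.3% to 68.4% of cells. Sema5b was found in 63.6% of cells at E13.5, in 15.2% at P1 and again in 40.9% (35.5 to 46.4%) at P90. Sema6a had a mean RPKM of 24.5 at P7 and of 5.59 in the P7 cells with at least 4 neuron markers, so its P7 value moved with the cells that lack these markers.

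Epha5 was the leading Eph receptor at every stage. It passed an RPKM of 10 in 61.4% of cells at E13.5, 75.9% at P1 and 90.4% at P90, while its mean RPKM was 77.4, 108.1 and 103.4 at the 3 embryonic stages and 108.1, 102.1 and 77.5 at P1, P7 and P90. At P90 more cells therefore had Epha5 than at P1, at a lower mean level per cell. Ephb2 was highest at E13.5 (mean RPKM of 38.9) and at 13.9 at P1 and 4.23 at P90. Ephb1 was at 20.5, 23.9 and 4.0, and Epha7 at 8.37, 15.5 and 8.79. Epha3 and Epha4 stayed at or below 3.01. Efnb3 had mean RPKM values of 134.5, 124.3 and 179.8 at the 3 embryonic stages and 193.8, 121.02 and 41.5 at P1, P7 and P90. In P7 cells with at least 4 neuron markers its mean was 168.9. It was found in 80.4% of cells at P7 and in 97.4% of those with at least 4 neuron markers. Efna5 and Efnb2 stayed at or below 11. Of the netrin-G proteins, which are anchored to the membrane and bind partners on other cells, Ntng1 was highest at P90 (51.1, against 9.12 to 26.6 at the 5 earlier stages) and Ntng2 at E13.5 (61.9).

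**Figure D2:**
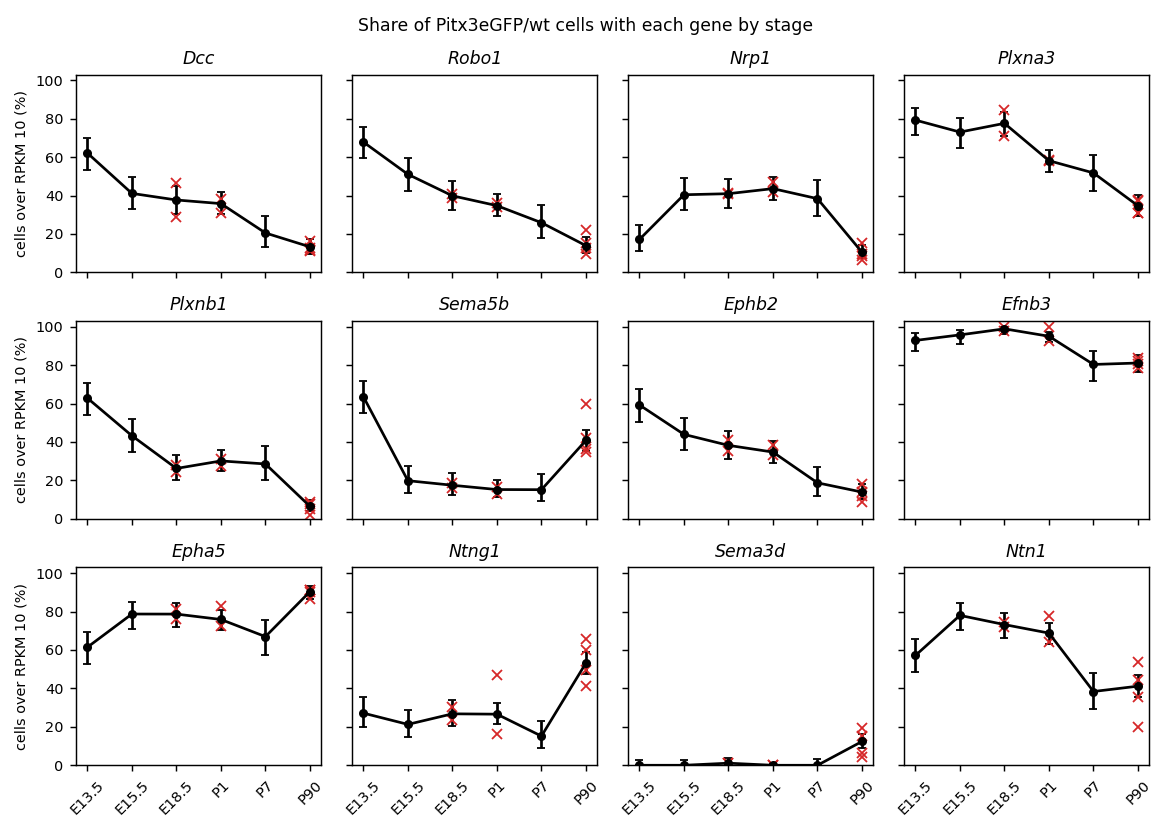
Share of Pitx3eGFP/wt cells with an RPKM over 10 (y axis, percent) at 6 stages (x axis) for 12 guidance genes. Black points are all kept cells with exact 95% binomial intervals, and red crosses are single plates or library sets where a stage has several. Dcc, Robo1 and Ephb2 step downwards from E13.5 to P90, Plxnb1 does so except between E18.5 and P1, Ntng1 and Sema3d are highest at P90, and the P90 plates of Ntn1 lie far apart, the highest at 53.8%.

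The first comparison over time set P1 against E13.5 in heterozygotes. No E13.5 cell here had spike-in RNA, whereas 94 of the P1 cells did, and no values matched for spike-in are given for this comparison. Of 41 members, 39 had a mean RPKM of at least 1 at either stage (Robo3 and Sema3d did not), of which 6 were at least 2-fold higher at P1 and 7 at least 2-fold lower, on the scale of mean RPKM plus 1. Over all 15969 entries that passed the same filter, 18.7% were higher and 6.04% lower. The median log2 ratio was 0.12 for the members and 0.07 for all entries. Sema5b, a transmembrane semaphorin, had a log2 ratio of -2.69, and the share of cells differed by -48.3 percentage points (-56.7 to -38.9). Ntng2 had a log2 ratio of -2.76 and a mean of 210.6 RPKM at E13.5 in cells with Nxph4 over 150. Nrp2, Ephb2, Robo1, Plxnb1 and Efnb2 were the other lower members, with log2 ratios of -1.43, -1.42, -1.41, -1.29 and -1.09. Nrp1 led the higher members in abundance, with a log2 ratio of 1.67 and a difference in share of 26.5 percentage points (17.4 to 34.4). Unc5c, Slit3, Plxnd1, Sema3a and Sema5a were also higher, with log2 ratios of 2.03, 2.05, 1.60, 1.52 and 1.17, from means of 0.00662 to 1.23 RPKM at E13.5. All of these but Sema5a were under 1 RPKM at E13.5, so they passed the filter through P1 alone and could only be called higher. Sema3a was over an RPKM of 10 in 2.84% of P1 cells, and the interval of its difference in share included 0. Non-neuronal markers moved with this comparison: 6 of 7 astrocyte and 6 of 6 microglia markers were at least 2-fold higher at P1, as were 4 of 5 endothelial (Kdr was lower), 3 of 4 oligodendrocyte and 4 of 7 progenitor and floor plate markers. The astrocyte and microglia markers had summed means of 27 and 0.157 RPKM at E13.5 and 383.9 and 135.7 at P1. The makeup of the groups moved as well, with Slc6a3-high cells (Slc6a3 alone over an RPKM of 150) at 17.9% of kept cells at E13.5 and 36.9% at P1, and Nxph4-high cells at 27.1% and 13.8%. Within Slc6a3-high, Nxph4-high and Gad2-high cells the log2 ratio was -2.57, -3.03 and -4.16 for Sema5b, -0.34, -0.67 and -1.92 for Nrp2, and 2.22, -2.66 and -0.83 for Ntng2. In cells with at least 4 neuron markers, 7 members were higher and 7 lower, beside 17.6% and 6.62% of all entries.

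The second comparison set P90 against P1. Here 40 members (all but Robo3) passed the minimum mean, of which 2 were at least 2-fold higher at P90 and 13 at least 2-fold lower, against 8.7% and 17.3% of all 16003 entries. The median log2 ratio was -0.68 for the members and -0.18 for all entries. Nrp1 had the lowest log2 ratio (-2.46), and its mean was 27.4 to 31.5 RPKM in the 2 sets of P1 libraries and 2.77 to 7.22 in the 4 P90 plates. Efnb3 followed the same direction in each set, with means of 190.1 to 201.3 at P1 and 34.5 to 50.3 at P90 and a log2 ratio of -2.20. Dcc had a log2 ratio of -2.02, with 11.3 to 22.7 RPKM at P1 and 3.18 to 4.76 at P90. Among the lower members, the P1 and P90 ranges overlapped for Efna5 alone. They were apart also for several members that were not called, such as Plxnb2, Robo2 and Epha5. How many of all entries had ranges apart was not counted. Ephb1, Sema6a, Plxnb1, Unc5b, Ntn1, Efna5 and Plxna3 had log2 ratios of -2.32, -2.28, -2.05, -1.99, -1.81, -1.75 and -1.53. For Efna5 the lower P1 set (4.8 RPKM) lay within the range of the P90 plates (1.2 to 5.18). The 3 remaining lower members, Ephb2, Robo1 and Plxna1, had log2 ratios of -1.51 to -1.31. Ntng1 was higher at P90 with a log2 ratio of 1.60, and by mean level its P90 plates (31.6 to 77 RPKM) lay above both P1 sets (9.8 to 28.8). The shares of cells overlapped, however, at 41.3 to 65.6% over the P90 plates and 16.5 to 46.8% over the P1 sets. Sema3d was the other higher member. Its mean was under 1 RPKM at P1 and that of Unc5b under 1 at P90, so each could be called in 1 direction only. All P90 cells had spike-in RNA, and against the 94 P1 cells with spike-in 3 members were higher and 13 lower, beside 13.2% and 12.6% of all entries. The calls of Ntng1 (log2 ratio 0.80) and Efna5 (-0.71) were lost there and the other 13 were not, while Slit2 (1.28), Sema3c (1.40) and Epha7 (-1.10) were called there alone. Cells with Nxph4 alone over 150 were 44.9% of kept cells at P90 and 13.8% at P1, so the makeup of the sampled groups moved with stage. Within cells classed by 1 marker, the log2 ratio of Efnb3 was -2.68 in Slc6a3-high, -2.16 in Nxph4-high and -2.57 in Gad2-high cells, and that of Nrp1 was -1.92, -2.61 and -3.30. Ntng1 did not keep 1 direction across the classes, with log2 ratios of -1.08 in Slc6a3-high, 2.44 in Nxph4-high and 0.95 in Gad2-high cells. Markers of other cells moved with this comparison too: 6 of 7 astrocyte, 6 of 6 microglia and 6 of 6 progenitor and floor plate markers were at least 2-fold lower at P90, with summed means of 383.9, 135.7 and 237.9 RPKM at P1 and 328.1, 0.716 and 16.2 at P90. The astrocyte marker Aldoc was higher. The neuron markers had a median log2 ratio of -0.93, with 3 of 6 lower (Tubb3, Stmn2 and Map2) and 1 higher (Snap25). In cells with at least 4 neuron markers, 2 members were higher and 14 lower, beside 9.19% and 15.8% of all entries. P1 cells served in both comparisons over time.

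Genes of the same pathways that are not among the 41 members were counted from fixed lists. At P90 against P1, 11 of 22 guidance effectors, the proteins that carry receptor signals to the cytoskeleton, were at least 2-fold lower and 2 higher, beside 17.3% and 8.7% of all entries. The lower ones included Crmp1, Dpysl3 and Dpysl5 of the collapsin response mediators and Srgap1, Srgap2 and Srgap3, which act downstream of Robo receptors. Of the other Eph and ephrin genes, 6 of 11 that passed the filter were lower and 0 higher. Other netrin and Slit pathway genes had 3 of 9 lower, other semaphorins and plexins 3 of 11 lower and 1 higher, axonal adhesion molecules 1 of 6 lower and both netrin-G partners neither. At P1 against E13.5, 5 of 22 effectors were higher and 0 lower, beside 18.7% and 6.04% of all entries, and 4 of 11 other Eph and ephrin genes were higher and 0 lower. Of the other lists, netrin and Slit pathway genes had 1 of 8 higher and 2 lower, semaphorins and plexins 2 of 10 higher and 1 lower, netrin-G partners 1 of 2 higher (Lrrc4c) and adhesion molecules 0 of 6 in either direction.

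The number of different guidance receptors per cell was counted over the 24 receptors among the members. A cell had a median of 8 receptors over an RPKM of 10 at E13.5 (mean 7.51, quartiles 6 and 9). The median was 7 at E15.5 and 8 at E18.5. It was 7 at both P1 and P7, and 5 at P90 (mean 4.77, quartiles 4 and 6). The mean at P7 was 6.21, and 6.86 in cells with at least 4 neuron markers. With every cell thinned to 100000 reads the means were 7.35 at E13.5, 7.15 at P1 and 4.64 at P90. The number of all entries over an RPKM of 10 went the other way, with means of 4371 at E13.5, 4957 at P1 and 5642 at P90. The other 17 members, ligands, membrane semaphorins and netrin-G proteins among them, had means of 4.92 per cell at E13.5, 4.66 at P1 and 4.85 at P90. The classes at P90 had mean receptor numbers of 4.8 in Slc6a3-high, 4.75 in Nxph4-high and 4.67 in Gad2-high cells.

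**Figure D3:**
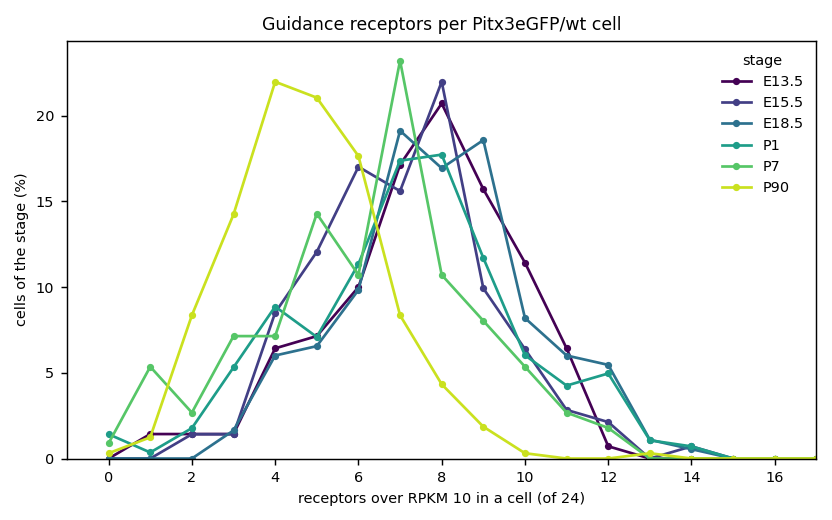
Percent of Pitx3eGFP/wt cells of a stage (y axis) by the number of the 24 guidance receptors over an RPKM of 10 in the cell (x axis), 1 line per stage. The P90 line peaks at 4 receptors, whereas the lines of the 5 earlier stages peak at 7 or 8.

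Pairs of receptors, or of a ligand and its receptor, were counted in the same cell and set beside the product of their single shares. Ntn1 and its receptor Dcc were both over an RPKM of 10 in 38.6% of cells at E13.5 (product 35.5%), 28.7% at P1 (product 24.6%) and 4.64% at P90 (product 5.48%). Slit2 was found together with Robo1 or Robo2 in 41.4% of E13.5 cells and 28.5% of P90 cells, with products of 38.4% and 30.5%. Robo1 and Robo2 shared 46% of Slc6a3-high cells at E13.5 and E15.5 together (product 42%) and 6 of 60 Nxph4-high cells at these stages (product 8.36%), so both joint shares lay near the products. Nrp1 and Nrp2, Dcc and Unc5c, Dcc and Unc5d, Efna5 and Epha5, Efnb3 and Epha4, and Ntng1 and Ntng2 were counted in the same way. Across these 6 pairs the joint share was at most 17.7% in any heterozygous stage (Efna5 with Epha5 at P1, product 17%).

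In the genotype comparison the targeted gene was checked first. Pitx3 had a mean RPKM of 415.7 in heterozygous and 18.8 in homozygous cells at E13.5, and of 98.2 and 7.97 at P1, in the direction of the labels. At E13.5 none of the homozygous plates shares a library set with the heterozygous cells, which had no spike-in, so that genotype and library set cannot be told apart there, and reads per cell differed as well (medians of 753256 and 2357900). At P1 the 94 heterozygous cells with spike-in allow a comparison among cells with spike-in. These were all on plate P1_1 and the homozygous cells on plates P1H_1 and P1H_2. Genotype and plate therefore cannot be told apart at P1 either. Cells with Slc6a3 alone over an RPKM of 150 (Slc6a3-high cells) were 9.36% of homozygous and 36.9% of heterozygous cells at P1, and 0.559% and 17.9% at E13.5, so the makeup of the groups moved with genotype. Of the other midbrain neuron markers, Isl1 and Pou4f1 were at least 2-fold higher in homozygotes at E13.5, and the summed means of the 7 markers were 26.5 and 7.11 RPKM. At P1, 5 of 6 microglia and 2 of 7 astrocyte markers (Aqp4 and Gfap) were at least 2-fold higher in homozygotes and 2 of 4 endothelial markers (Cldn5 and Ly6c1) lower, and so was Isl1. The summed microglia markers averaged 519.9 RPKM in homozygotes (range 0 to 20971) and 135.7 in heterozygotes (range 0 to 20936), and 8 and 2 cells had at least 3 of these markers over an RPKM of 10. The part of these markers in the genotype values was not tested.

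Dcc had the largest ratio between genotypes among the members over all kept cells at P1, though not among cells with spike-in, where those of Epha7, Sema5b and Sema6a were larger. At P1 its mean RPKM was 4.06 in homozygous and 18.9 in heterozygous cells (log2 ratio -1.98), and the share of cells over an RPKM of 10 was 9.94% (5.9 to 15.4%) against 35.8% (30.2 to 41.7%), a difference of -25.9 percentage points (-32.7 to -18.3). The 2 homozygous plates had means of 3.87 to 4.25 RPKM, below the 11.3 to 22.7 of the heterozygous sets. Among cells with spike-in the means were 4.06 and 11.3 (log2 ratio -1.28), and among cells with at least 4 neuron markers 3.51 and 20.1. Within the classes, the log2 ratio of Dcc was -4.52 in Slc6a3-high, -2.58 in Nxph4-high and -2.59 in Gad2-high cells, and -0.86 in cells with none of these markers. The 3 classes held 16, 25 and 31 homozygous cells. These class values take in heterozygous cells both with and without spike-in, whereas all homozygous cells had it. At E13.5 the direction was the same, with 36.3% of homozygous and 62.1% of heterozygous cells over an RPKM of 10, or 36.9% and 58.6% after thinning to 100000 reads. The mean RPKM at E13.5 was 25.1 against 37.2, less than 2-fold apart, and the plate with the highest homozygous mean (36.6) came close to the heterozygous value.

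Over all members at P1, 1 of 39 was at least 2-fold higher and 5 at least 2-fold lower in homozygotes, against 4.05% and 3.18% of 16162 entries, with median log2 ratios of -0.24 and -0.0038. Sema5b was the higher one, with means of 33.9 in homozygous and 15.9 RPKM in heterozygous cells (log2 ratio 1.05, and 1.49 among cells with spike-in) and a difference in share of 17.5 percentage points (9.43 to 25.7). Its log2 ratio was 2.97 in Slc6a3-high cells, of which 16 were homozygous, and -0.05 in Gad2-high cells. With the oligodendrocyte-like cells kept, Sema5b was less than 2-fold apart. Epha7 had a log2 ratio of -1.30 and -1.64 among cells with spike-in, while its difference in share was -4.76 percentage points (-11.4 to 2.52). Efna5 was at 4.24 against 11 RPKM (log2 ratio -1.19), but among cells with spike-in the log2 ratio was -0.15, so the call was lost there. Sema5a and Sema3a were lower from means of 4.0 and 1.89 RPKM in heterozygotes, and their differences in share had intervals that included 0. Among cells with spike-in their log2 ratios were -0.89 and -0.74, so that 3 of the 5 lower calls were lost there and those of Dcc and Epha7 were not. In all, 3 of 38 members were higher there (Sema5b, Sema6a and Epha3) and 3 lower (Dcc, Epha7 and Epha4), beside 10.9% and 2.38% of all entries. At E13.5, 2 of 37 members were at least 2-fold higher (Slit3 and Robo3) and 0 lower, against 4.35% and 4.77% of 14563 entries, with median log2 ratios of -0.14 and -0.03. Both had means of at most 3.06 RPKM and were over an RPKM of 10 in at most 2.79% of homozygous cells. In heterozygotes their means were 0.305 (Slit3) and 0.321 (Robo3). They therefore passed the filter through homozygotes alone and could only be called higher. The interval of the difference in share excluded 0 in the same direction at both stages for Dcc and Plxnb1, which were lower, and for Plxnc1 and Sema6d, which were higher in homozygotes. For Plxnb1 the differences were -12.6 percentage points (-23.1 to -1.6) at E13.5 and -10.8 percentage points (-18.5 to -2.56) at P1, and for Plxnc1 12.7 percentage points (3.08 to 21.8) and 11.3 percentage points (2.1 to 20.5). For Sema6d they were 13.7 percentage points (2.75 to 24.2) and 9.18 percentage points (0.0859 to 17.8). Among P1 cells with spike-in these 3 genes were less far apart, at 19.3% of homozygous and 27.7% of heterozygous cells for Plxnb1, 45% and 42.6% for Plxnc1, and 70.2% and 66% for Sema6d. Plates of the genotypes overlapped in part, since Plxnb1 was found in 31.4 to 65.5% of cells over the homozygous E13.5 plates against 62.9% in heterozygotes, and Plxnc1 in 41.2 to 48.8% over the homozygous P1 plates against 29.3 to 42.6% over the heterozygous sets. These 4 genes were singled out after their values had been seen, and of the other 37 the interval excluded 0 in 1 at E13.5 and in 7 at P1. In all, the interval lay above 0 for 3 members and below 0 for 2 at E13.5, beside 15.5% and 3.91% of all entries, and above 0 for 6 and below 0 for 5 at P1, beside 16.5% and 2.38%. Of the other genes of these pathways, 0 were past 2-fold between genotypes at P1 and 2 at E13.5 (Flrt1 higher, Epha6 lower).

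**Figure D4:**
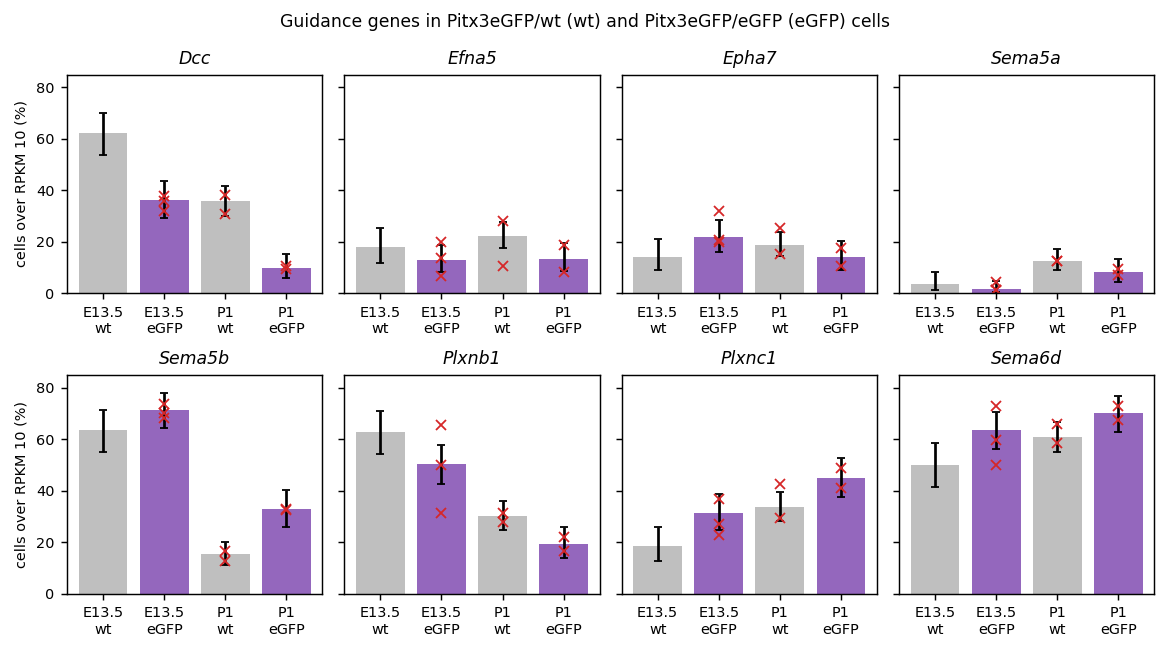
Share of cells with an RPKM over 10 (y axis, percent) in Pitx3eGFP/wt (grey) and Pitx3eGFP/eGFP (purple) cells at E13.5 and P1 for 8 guidance genes. Bars are all kept cells with exact 95% binomial intervals and red crosses are single plates or library sets. Dcc bars of homozygotes stand about 26 points below those of heterozygotes at both stages, and the crosses of Efna5 at P1 overlap between genotypes.

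Heterozygous cells were then classed by which single gene among Slc6a3 (the dopamine transporter), Nxph4 (a neurexophilin, a secreted protein of the family that binds neurexins) and Gad2 (a GABA-synthesizing enzyme) had an RPKM over 150. Cells over this limit for several of the 3 genes (39 in all) were left out of the classes. At P90 this gave 66 Slc6a3-high cells (20.4% of kept cells), 57 Gad2-high cells and the largest class of Nxph4-high cells (44.9%). According to the paper, neurons high in the dopamine transporter are underrepresented among its sequenced cells when set beside tissue sections. The class shares here are therefore no measure of the makeup of the tissue. Of 38 members that passed the filter, 8 were at least 2-fold higher and 9 at least 2-fold lower in Slc6a3-high than in Nxph4-high cells, against 5.97% and 10% of 14957 entries. The members' median log2 ratio was -0.25, and that of all entries -0.13.

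Among the ligands, Slit2 was the clearest example. It was over an RPKM of 10 in 75.2% (67.3 to 82%) of Nxph4-high, 24.2% (14.5 to 36.4%) of Slc6a3-high and 33.3% (21.4 to 47.1%) of Gad2-high cells, at mean RPKM values of 54.1, 10.3 and 14.8. Slit2 was lower in Slc6a3-high than in Nxph4-high cells on 4 of 4 plates, with log2 ratios of -2.90 to -1.91. Slit3 was also found mostly in Nxph4-high cells (17.2%, against 3.03% of Slc6a3-high and 3.51% of Gad2-high cells). Of the secreted semaphorins, Sema3d was over an RPKM of 10 in 25.5% of Nxph4-high and 3.03% of Slc6a3-high cells and in 0 of 57 Gad2-high cells, which allows a share of up to 5.26%. Sema3c was found in 7.59% of Nxph4-high cells and in 0 of the other 2 classes. Ntn1 had the opposite order, at 54.5% of Slc6a3-high, 43.9% of Gad2-high and 31.7% of Nxph4-high cells. Efna5 and Sema6a were likewise higher in Slc6a3-high than in Nxph4-high cells, with log2 ratios of 1.65 and 1.01, on 3 and 4 of 4 plates.

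Among the receptors, members of the same family went opposite ways in the neuropilins and the netrin receptors only. Of 8 plexins and 5 Eph receptors that passed the filter, 1 each was higher and 0 lower in Slc6a3-high than in Nxph4-high cells. Of 2 Robo receptors 0 were called. Nrp1 was over an RPKM of 10 in 21.2% of Slc6a3-high and 2.07% of Nxph4-high cells (log2 ratio 2.61, 2.04 to 3.48 over the plates), whereas Nrp2 was found in 10.6% and 39.3% (log2 ratio -1.61, -2.42 to -0.14 over the plates). Unc5c and Unc5d were higher in Slc6a3-high cells (2.36 and 1.65 on the log2 scale), and Unc5a was lower (-1.96), found in 10.6% of Slc6a3-high, 37.9% of Nxph4-high and 28.1% of Gad2-high cells. Each of these 3 kept its direction on 4 of 4 plates. Plxnc1, a plexin that binds Sema7a, was found in 36.4% (24.9 to 49.1%) of Slc6a3-high, 26.3% of Gad2-high and 7.59% (3.85 to 13.2%) of Nxph4-high cells. Epha4 was over an RPKM of 10 in 16.7% of Slc6a3-high and 12.3% of Gad2-high cells and in 0 Nxph4-high cells, which allows a share of up to 2.07%. Sema3a was lower in Slc6a3-high cells at 1.52% against 4.83%, a difference whose interval included 0. Robo2, Epha5, Plxna3 and Efnb3 were less than 2-fold apart between these classes. Of the 17 members called between them, 14 had the same direction on 4 of 4 plates, and Sema3a, Epha4 and Efna5 on 3 of 4. The calls were made on the pooled cells of these same plates, so the plates are no independent check of direction. How many of all called entries kept their direction was not counted. This applies also to the comparisons with Gad2-high cells below. Plate P90_5 held 8 Slc6a3-high cells and plate P90_2 held 9 Gad2-high cells.

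The share of cells with Ntng1 differed between all 3 classes at P90. Ntng1 was over an RPKM of 10 in 89.5% (78.5 to 96%) of Gad2-high, 55.2% (46.7 to 63.4%) of Nxph4-high and 24.2% (14.5 to 36.4%) of Slc6a3-high cells, with mean RPKM values of 95.7, 55 and 8.8. The 3 intervals did not overlap, though by mean level Nxph4-high and Gad2-high cells were less than 2-fold apart. Ntng2 was found in 28.3% of Nxph4-high, 6.06% of Slc6a3-high and 1.75% of Gad2-high cells. Against Gad2-high cells, Slc6a3-high cells had 6 of 36 members at least 2-fold higher and 5 lower (7.54% and 10.2% of 14884 entries, median log2 ratios 0.40 and -0.09). The lower ones were Ntng1 (-3.30), Unc5a (-1.43), Nrp2 (-1.26), Epha3 (-1.18) and Sema5a (-1.12). The higher ones were Slit1 (1.20, in 47% against 21.1% of cells), Nrp1 (1.11), Unc5c (1.34), Plxnb1 (1.21), Robo1 (1.08) and Plxnd1, which was over an RPKM of 10 in 4.55% of Slc6a3-high and 0 of 57 Gad2-high cells. Of the 6 higher members, the interval of the difference in share excluded 0 for Slit1 (25.9 percentage points (9.1 to 40.6)) and Nrp1 (15.9 percentage points (3.74 to 27.8)). How many of all entries had an interval that excluded 0 was not counted for this comparison. Ntng1, Unc5a and Robo1 had the same direction on 4 of 4 plates and the other 8 did not. Nrp1, Plxnb1, Epha3, Unc5c (-0.52 to 3.86), Slit1 (-0.35 to 3.01), Nrp2 (-1.74 to 1.86) and Sema5a (-1.96 to 2.14 on the log2 scale) had it on 3 of 4, and Plxnd1 on 2 of 4.

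Nxph4-high cells had 9 of 39 members at least 2-fold higher and 6 lower than Gad2-high cells, against 6.73% and 5.08% of 15018 entries, with median log2 ratios of 0.13 for the members and 0.03 for all entries. Besides Sema3c, Sema3d and Sema3a, which were near 0 in Gad2-high cells, the higher members were Ntng2 (2.96), Slit2 (1.80), Epha7 (1.55), Slit3 (1.47), Ephb1 (1.06) and Plxnd1. The lower members were Epha4 (-1.83), Plxnc1 (-1.56), Nrp1 (-1.50), Unc5d (-1.38), Efna5 (-1.14) and Unc5c (-1.02). Of these 15 members, 12 had the same direction on 4 of 4 plates. Epha4 (-2.51 to 0.16) and Efna5 (-2.53 to 1.03) were lower on 3 of 4 plates and Unc5c (-1.89 to 1.06 on the log2 scale) on 2 of 4. The 3 comparisons of classes at P90 share cells, and they are set side by side without a test of their overlap.

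**Figure D5:**
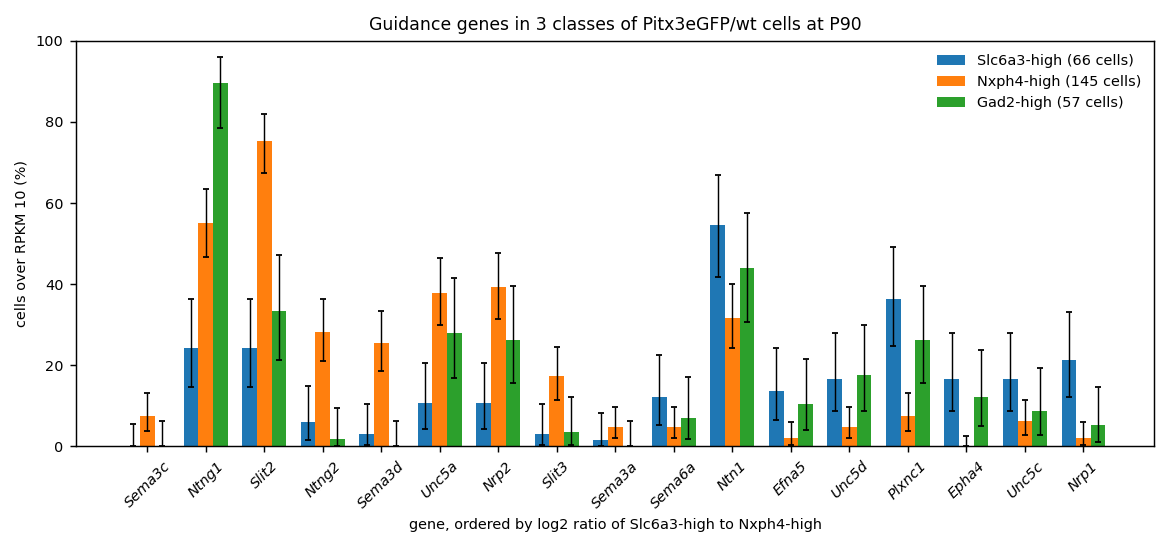
Share of P90 Pitx3eGFP/wt cells with an RPKM over 10 (y axis, percent, from 0) in Slc6a3-high (blue), Nxph4-high (orange) and Gad2-high (green) cells for the 17 genes at least 2-fold apart between Slc6a3-high and Nxph4-high cells, ordered by that log2 ratio. Error bars are exact 95% binomial intervals. Slit2 is highest in Nxph4-high cells, Ntng1 in Gad2-high cells, and Epha4 has no bar in Nxph4-high cells.

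Part of this division was already seen before adulthood. With E18.5, P1 and P7 pooled, Slc6a3-high cells (35.9% of 577 kept cells) were compared with 64 Nxph4-high cells, and 6 of 38 members were at least 2-fold higher and 6 lower in Slc6a3-high cells, against 7.39% and 8.68% of 15547 entries (median log2 ratios 0.19 and -0.06). Slit2 was again higher in Nxph4-high cells (76.6% against 32.4%), and so were Nrp2 (56.2% against 23.7%) and Ntng2 (29.7% against 2.9%). Sema3c was over an RPKM of 10 in 6.25% of Nxph4-high and in 0 Slc6a3-high cells. Efna5 and Epha3 were higher in Nxph4-high cells too, with log2 ratios of -1.15 and -1.09. At P90, in contrast, Efna5 was higher in Slc6a3-high cells and Epha3 was not called. In the other direction stood Nrp1 (42% of Slc6a3-high against 17.2% of Nxph4-high cells), Epha4 (15.5% against 1.56%), Unc5c (14.5% against 4.69%), Robo1 (46.4% against 20.3%) and Plxna4 (25.1% against 6.25%). Unc5b was over an RPKM of 10 in 11.1% of Slc6a3-high and 0 of 64 Nxph4-high cells. Robo1, Plxna4 and Unc5b were not called between these classes at P90. Cells with spike-in RNA were 61.8% of the Slc6a3-high and 35.9% of the Nxph4-high cells. Among cells with spike-in, 9 members were higher and 8 lower in Slc6a3-high cells, beside 12.5% and 9.94% of all entries, and 11 of the 12 calls (all but Plxna4) were the same. There the log2 ratio was -1.73 for Slit2, -1.11 for Sema3c, -1.57 for Efna5 and 2.71 for Epha4, on 23 Nxph4-high cells. Other markers also differed between these classes: in Slc6a3-high cells 6 of 6 microglia and 2 of 7 astrocyte markers were at least 2-fold higher, and 4 astrocyte and 3 of 5 progenitor and floor plate markers (Sox2, Vim and Hes5) were lower. The summed microglia markers averaged 175.3 RPKM in Slc6a3-high cells, 2 of which had at least 3 of them over an RPKM of 10, and 0.478 in Nxph4-high cells. The summed astrocyte and progenitor markers averaged 80.9 and 50.8 RPKM in Slc6a3-high and 176.1 and 139.4 in Nxph4-high cells. Their part in the members' values was not tested. Ntng1 was at 66.7% of 63 Gad2-high cells at these stages, against 27.5% of Slc6a3-high and 25% of Nxph4-high cells.

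At E13.5 and E15.5 together, with 63 Slc6a3-high, 60 Nxph4-high and 22 Gad2-high cells, some orders were the same and others not. Slit2 (78.3% of Nxph4-high against 46% of Slc6a3-high cells) and Nrp2 (76.7% against 23.8%) were again higher in Nxph4-high cells, and Ntng1 was highest in Gad2-high cells (59.1%, 36.4 to 79.3%). Ntng2 had a mean RPKM of 169.3 in Nxph4-high, 3.37 in Gad2-high and 0.0783 in Slc6a3-high cells. Robo2 was over an RPKM of 10 in 58.7% (45.6 to 71%) of Slc6a3-high and 11.7% (4.82 to 22.6%) of Nxph4-high cells at this time, and in 57.6% and 49.7% at P90. Unc5c, higher in Slc6a3-high cells at P90, was here over an RPKM of 10 in 18.2% of Gad2-high cells and in 0 of the 63 Slc6a3-high and 60 Nxph4-high cells, which allows shares of up to 4.76% and 5.0%. Sema5b was found in 66.7% of Nxph4-high, 68.2% of Gad2-high and 33.3% of Slc6a3-high cells. The classes held the 2 stages in unequal parts, with 38 Nxph4-high and 25 Slc6a3-high cells at E13.5 and 22 and 38 at E15.5. Taken by stage, Sema5b was found in 81.6% of Nxph4-high and 52% of Slc6a3-high cells at E13.5 and in 40.9% and 21.1% at E15.5. Ntng2 had means of 210.6 and 97.9 RPKM in Nxph4-high cells at the 2 stages and of at most 0.116 in Slc6a3-high cells. Slit2 and Nrp2 were higher in Nxph4-high and Robo2 in Slc6a3-high cells at each stage.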

How the data were processed

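Single sorted cells were sequenced with Smart-seq2. The authors aligned reads with STAR to mm10 with eGFP and spike-in sequences added and deposited, for each cell, the count of uniquely mapped reads per gene entry and the RPKM value, scaled by gene length and by the cell's reads. The protocol does not mark strand, so reads of overlapping genes cannot be told apart. Cells were kept with at least 100000 reads and at least 15% of detected entries (3.4% at P90), and cells with 3 of 9 oligodendrocyte markers were left out. From the deposited RPKM values, mean levels, quartiles and shares of cells over 10 were computed (Python 3.11.15, pandas 2.3.3, scipy 1.17.1), with exact Clopper-Pearson intervals for shares and Newcombe intervals for their differences, which cover counting error only. A share of 0 was given the limit that 3 cells of the total allow. Cells are not replicates, and no animal is named, so no p-value was computed. Genes were called at a 2-fold ratio of mean RPKM plus 1, where either mean reached 1. An entry whose mean is under 1 in either group can be called only as higher in the other, among members and all entries alike. The rule was run on simulated Poisson reads with larger changes, which lack the added spread between real cells. That run does not check 2-fold calls in small classes. The members, lists and classes were chosen with earlier results of these data known. Values are given for called members, at most 10 in each direction of a comparison, and for the most abundant member of each role group, and other members by range and count. Ntng2 has 2 entries, and the one with more reads was used. Alternatives were other pseudocounts, filters, scalings, class limits and cell filters, thinning to 100000 reads, and leaving out plates. Doublets were not called, and cells over the limit for several class genes were left out of the classes.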

Additional observations from a re-analysis of the deposited data

Results flagged for a closer look

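Efna5, an ephrin anchored to the membrane, was lower in Slc6a3-high than in Nxph4-high cells with E18.5, P1 and P7 pooled (log2 ratio -1.15) and higher at P90 (log2 ratio 1.65). The directions were opposite, and the difference between the stages was not tested. At P1, Efna5 also differed between cells with and without spike-in RNA (means of 4.8 and 14.1 RPKM). Among perinatal cells with spike-in the log2 ratio between the classes was -1.57.

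Sema6a, a membrane semaphorin, had a mean of 69.4 RPKM in the 67 oligodendrocyte-like cells that were left out at P7, against 5.59 RPKM in the 77 kept P7 cells with at least 4 neuron markers. These left-out cells enter no comparison.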

How the results depend on the processing

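No paired analysis was possible because no result comes from a test and the labels give no replicate numbers that groups share. P90 classes, which share plates, were set side by side within plates as a description. Counts of members past 2-fold, higher and lower in 8 comparisons, were recomputed under each setting. Of the recomputed counts 42 moved beyond 1.5 times the reported one, 0 reversed, and the rest stayed within it. For P1 against E13.5, 6 were higher, against 2 with a mean of at least 5 RPKM and 3 with the difference of mean log2 RPKM. For P90 against P1, 2 were higher, against 1 with a mean of at least 5. For homozygotes at E13.5, 2 were higher, against 5 with a pseudocount of 0.1, 0 with a mean of at least 5, 0 with mean log2 RPKM and 4 with summed reads, and 0 were lower, against 3 with the pseudocount of 0.1, 1 with detection over all entries, 1 with mean log2 RPKM, 3 with summed reads, and 1 without plate 13H_4 or without plate 13H_6. For homozygotes at P1, 1 was higher, against 0 with oligodendrocyte-like cells kept and 3 among cells with spike-in, and 5 were lower, against 3 with a mean of at least 5, 1 with mean log2 RPKM, 3 among cells with spike-in, 3 without plate P1H_1 and 8 without plate P1H_2. At P90, Slc6a3-high against Nxph4-high cells had 8 higher, against 5 with a mean of at least 5 and 5 with mean log2 RPKM. Against Gad2-high cells, 6 were higher, against 1 with mean log2 RPKM, and 5 lower, against 2 with mean log2 RPKM, 2 with a class limit of 50 RPKM and 2 without plate P90_4. Nxph4-high against Gad2-high cells had 9 higher, against 5 with a mean of at least 5, and 6 lower, against 1 with a mean of at least 5 and 2 with mean log2 RPKM. The perinatal comparison had 6 higher, against 3 with mean log2 RPKM. Except where a setting tests fewer genes or cells by its construction, the cause was not tested.

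Counts within 1 class were chosen after seeing the data, as were those in cells with at least 4 neuron markers, which stayed within 1.5 times throughout. Within Gad2-high cells, 14 members were higher and 10 lower at P1 than at E13.5, against 30% and 16.2% of all entries. In this class 2 were higher and 21 lower at P90 than at P1, against 18.2% and 19.6%. Between genotypes, 5 were higher and 16 lower in Gad2-high homozygotes at E13.5, against 20.7% and 30.1% of all entries and on 6 homozygous and 12 heterozygous cells. At P1, 0 were higher and 13 lower, against 13.6% and 12.5%. Within Slc6a3-high cells, 1 was higher and 17 lower at P90 than at P1, against 11.4% and 20.02% of all entries, and 5 were higher and 10 lower in homozygotes at P1, on 16 homozygous cells and against 9.96% and 16.5% of all entries. Within Nxph4-high cells, 5 were higher and 16 lower at P90 than at P1, against 15.7% and 19.8%, and 4 were higher and 4 lower in homozygotes at E13.5, against 12.4% and 10.4%. Shares of single members moved in 75 of 546 recomputed values, all with the limit at an RPKM of 1 or 50.

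Each stage and genotype is 1 sample, so animal, dissection and stage cannot be told apart. Fewer cells of a type and less RNA per cell are told apart only as far as the classes go. Depth limits detection in single cells, the shallowest of which held 100007 reads.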
